A study of Solanum tuberosum with 22 samples.

Results

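FLS, the potato (Solanum tuberosum) gene for flavonol synthase, was followed on spotted 2-colour arrays through tuber formation. Its members are the spots whose platform annotation gives FLS as the symbol, which are 8 of the 32448 spots on the array. They share the gene identifier 102577717 and form 4 pairs. The spots of a pair list the same EST entries and are taken here as 1 cDNA clone printed on 2 spots. The clones are called A (spots 151273 and 152117), B (137682 and 138526), C (142452 and 144311) and D (142699 and 143543). The gene was selected on its lower values in tubers than in stolons in an earlier look at these arrays. The FLS values in tubers and stolons are therefore given as a description with no test, and FLS was tested only for culture time and tuber size.

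Flavonol synthase is an iron and 2-oxoglutarate dependent dioxygenase. It turns dihydroflavonols, which flavanone 3-hydroxylase (F3H) supplies, into flavonols such as kaempferol and quercetin. Dihydroflavonol 4-reductase, on the way to the anthocyanins, uses the same substrates. Flavonols are best known from leaves, flowers and peel, where they absorb ultraviolet light, and they occur as glycosides in potato.

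In vivo samples were tubers of 1-5, 6-10, 11-15, 16-25 and 26-35 mm and stolons, the underground shoots that had not yet formed a tuber, from plants in a growth chamber. In vitro samples were microtubers, small tubers induced on hormone-free sucrose medium in the dark, taken after 2, 5, 10, 20 or 30 days of tuber growth counted from induction. Each class or time had 2 replicates, which gave 12 in vivo and 10 in vitro arrays. Each in vivo replicate was a set of 10 plants, the sets being grown in sequence, and the in vitro replicates were separate microtuber populations. Every array set its sample against a pool of RNA from all stages of the same system, so a value of 0 means the level of the pool. The sources used here give neither cultivar nor plant age, and the labels repeat the culture medium for the in vivo samples. Tuber samples were labelled from total RNA and stolon samples from amplified cRNA. In any comparison of tubers with stolons, amplification and tissue therefore cannot be told apart. Between 33.1% and 48.9% of spots had a value on an in vivo array and between 52.0% and 65.7% on an in vitro array. Precision is limited by the number of arrays, and spot intensities were not analysed here. On the fixed lists of tissue markers, 11 of 14 tested tuber storage spots (KTI-C, API, PIN-II and patatin PAT1) were higher in tubers than in stolons and 0 were lower by the limma fit, where 22.3% of all 10415 spots were called, although storage proteins also helped to set the direction described next. In culture the 8 tested storage spots were all of PIN-II, and no spot of KTI-C, API or PAT1 could be tested. Of the 8, 6 were lower at 20-30 than at 2-5 days and 0 were higher, where 48.5% of all 19600 spots were called.

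The in vivo direction is only likely. In vivo replicates carried opposite dyes, with the sample in Cy3 in replicate 1 and in Cy5 in replicate 2, and as deposited they correlated between -0.63 and -0.36 across spots. Among in vivo arrays of the same dye order, correlations went down to -0.56. Replicate 2 was multiplied by -1 here, whereas the labelled dyes would turn replicate 1, and with that choice every in vivo value below changes sign. The FLS spots do not settle it. If the reference were an equal pool of the same RNA, the ratios of sample to pool would average 1 over the 6 in vivo classes. For clone A they averaged 0.220 and 0.222 in replicate 1 and 0.250 in replicate 2, where 1 spot had every value. With the other direction they averaged 32.1, 20.0 and 108. The median over all spots with every value was 1.02 and 1.03 in replicates 1 and 2 with the direction used, and 1.06 in both with the other. With the direction used, the 5th percentile over these spots was 0.370 and 0.480, and the clone A averages lay below it in both replicates. Clone A was thus far from 1 with either direction, and why was not tested.

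Clone A carried almost all of the in vivo difference that had drawn attention to FLS. In replicate 1, spot 151273 had log2 ratios of -4.06, -4.64, -5.64, -5.64 and -5.64 in tubers of 1-5, 6-10, 11-15, 16-25 and 26-35 mm, against 0.21 in stolons. In replicate 2 it had -7.68, -7.36, -8.31 and -6.77 in tubers of 1-5, 6-10, 11-15 and 26-35 mm, against 0.17 in stolons, with no value at 16-25 mm. All 9 tuber values lay far below both stolon values. Its neighbour 152117 repeated the pattern, with -3.47, -4.64, -4.64, -5.06 and -4.64 along the size series in replicate 1, against 0.12 in stolons. In replicate 2 it had -7.31, -7.16, -7.62, -1.80 and -7.17, against 0.25 in stolons. The 10 tuber values of this spot lay below its stolon values too, although the -1.80 at 16-25 mm stood well above the rest. At that array the other spot of the clone had no value, so the exception rests on 1 spot. There were only 2 stolon arrays, and FLS was selected on this contrast. The share of all spots that separate in this way is not given here.

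The low level of clone A was already present in the smallest tubers. The mean of its spots was -3.77 at 1-5 mm in replicate 1, against 0.17 in stolons, and -7.49 in replicate 2, against 0.21 in stolons. In replicate 1 the later classes lay between -5.35 and -4.64. In replicate 2 they lay between -7.97 and -6.97, apart from the single value of -1.80. These 5 differences within a replicate share 1 stolon array. The deposited ratios have 2 decimals, and the tuber ratios of clone A in replicate 1 were only 0.02 to 0.09. Rounding alone spans -6.06 to -5.32 at a ratio of 0.02, so the order of the classes above 10 mm in that replicate is not resolved.

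**Figure D1:**
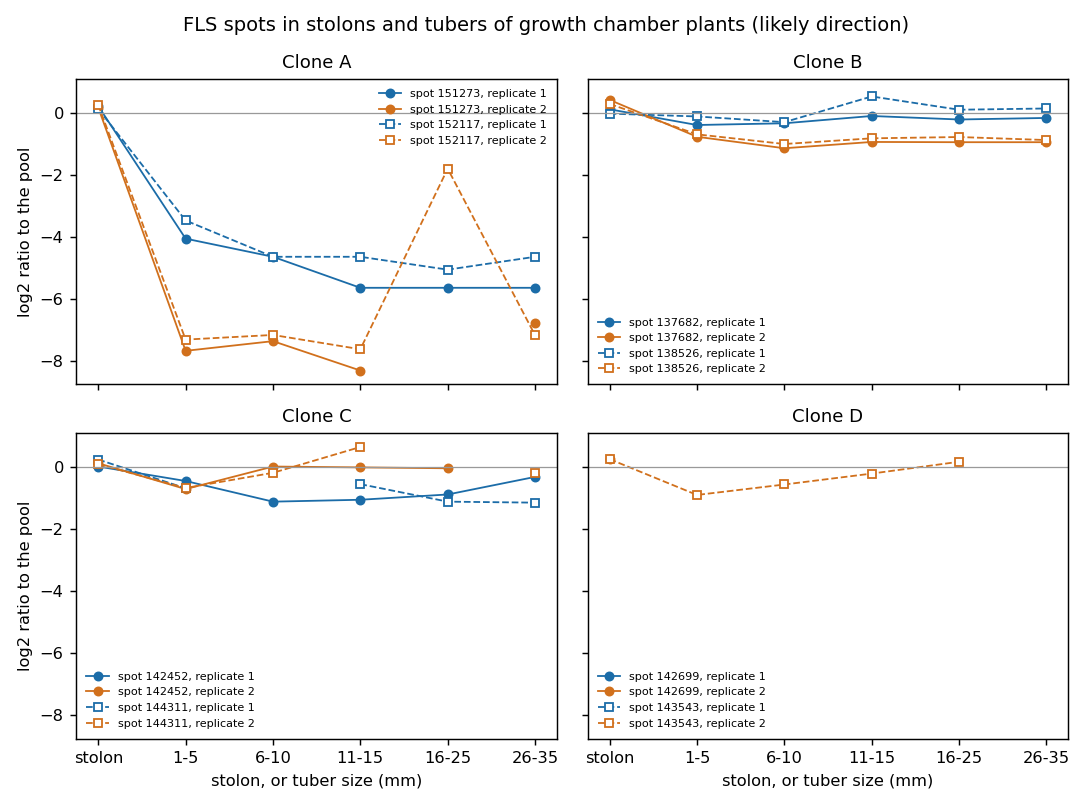
Log2 ratio to the pool (vertical) of both spots of each FLS clone in stolons and in 5 tuber size classes (horizontal), one line per spot and replicate, with replicate 2 multiplied by -1. Clone A drops to between -8.31 and -1.80 in tubers while its stolon values are between 0.12 and 0.25, and clones B, C and D stay between -1.15 and 0.64 in tubers.

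The other clones differed far less between tubers and stolons. Spot 137682 of clone B had -0.40, -0.34, -0.10, -0.22 and -0.17 along the size series in replicate 1, against 0.11 in stolons. In replicate 2 it had -0.77, -1.14, -0.94, -0.95 and -0.95, against 0.41 in stolons. On this spot tubers minus stolon was -0.36 in replicate 1 and -1.37 in replicate 2. Spot 138526 of the same clone had tuber values that overlapped its stolon values. They ran from -0.30 to 0.53 in replicate 1, against -0.03 in stolons, and from -1.01 to -0.70 in replicate 2, against 0.28 in stolons. Clone C had means over its spots of -1.12 to -0.57 in tubers of replicate 1, against 0.13 in stolons. In replicate 2 its tuber means ran from -0.70 to 0.31, against 0.10 in stolons, so the groups overlapped there. Clone D had no in vivo value in replicate 1. In replicate 2 its spot 143543 had -0.90, -0.57, -0.21 and 0.17 in tubers of 1-5 to 16-25 mm, against 0.25 in stolons, and spot 142699 had only its stolon value of 0.25.

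As the mean over the tuber classes minus the stolon, clone A came to -5.34 and -4.62 on its spots 151273 and 152117 in replicate 1 and to -7.70 and -6.47 in replicate 2. Spots 137682 and 138526 of clone B had -0.36 and 0.10 in replicate 1 and -1.37 and -1.12 in replicate 2. Spots 142452 and 144311 of clone C had -0.78 and -1.12 in replicate 1 and -0.31 and -0.19 in replicate 2. The median over the 6 spots with every class was -0.77, and the mean over them was -2.42, because it follows clone A. Over all 10415 spots tested the median difference was 0.08 and the median size of a difference 0.69. In these bulk samples fewer cells with the transcript and less transcript per cell cannot be told apart.

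Markers of green tissue had lower levels on the tuber arrays than on the stolon arrays. The list, with PSBR, MSP-II and OEE2 of photosystem II matched out of 14 names, had 22 spots. Of these, 13 to 15 had a value on a tuber array and 16 and 18 on the stolon arrays. The mean log2 ratio over the spots with a value ranged from -2.50 to -0.17 over the tuber arrays. It was 0.15 and 0.39 on the stolon arrays, so these means are not over the same spots. Of the 13 tested spots of the list, 0 were higher and 4 lower in tubers by the limma fit and 9 were not called. The median difference was -2.16, beside 22.3% of all spots called in this contrast. Of 4 spots for dividing tissue, the cyclins CYCD3.2 and CYCD3.3, 0 could be tested in this contrast. The part of green tissue in the FLS difference was not tested.

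**Figure D2:**
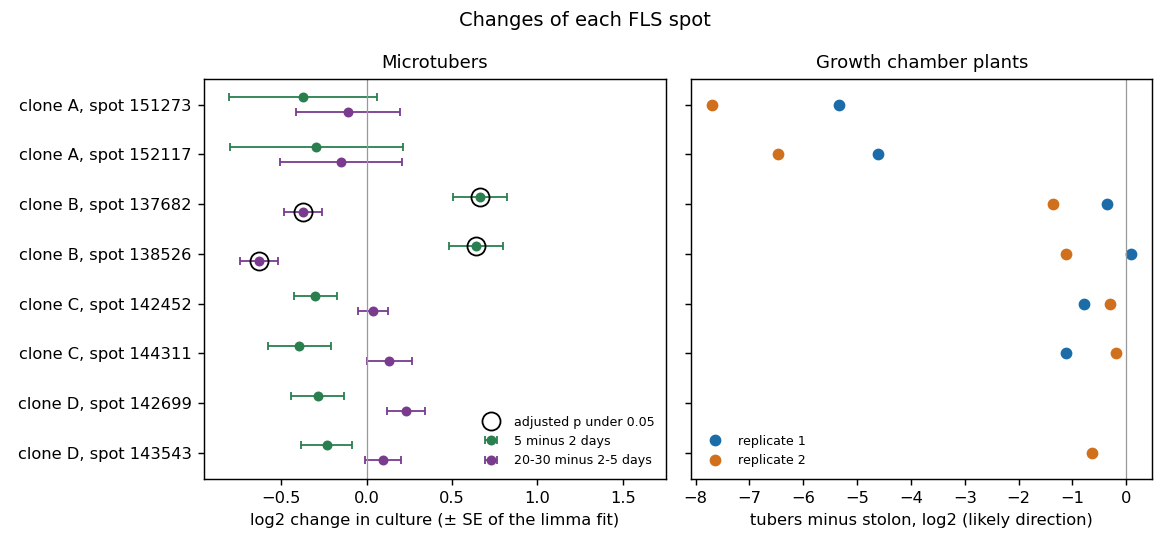
Left, log2 changes in culture of each FLS spot with standard errors from limma, circled where the adjusted p is under 0.05. Right, the mean over tuber classes minus the stolon by replicate, with replicate 2 multiplied by -1. In culture the circled spots are those of clone B, and on the plant the far values, from -7.70 to -4.62, are those of clone A.

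Among formed tubers the fit without a replicate block called no spot of the array for size, FLS included. The outcome for FLS was therefore that of the whole array. The comparison of tubers of 16-35 mm with those of 1-10 mm used the 10 tuber arrays, and 6 FLS spots had enough values, which meant that 80% or more of the arrays and each class were measured. The limma fit called 0 of 6 spots, and 0 had an unadjusted p under 0.05. Over all spots it called 0% of 10597, of which 679 had an unadjusted p under 0.05. The changes were 0.01 ± 1.23 and 0.98 ± 1.29 for clone A, 0.09 ± 0.35 and 0.17 ± 0.43 for clone B, and 0.18 ± 0.45 and -0.46 ± 0.49 for clone C (log2, SE of the fit). These errors leave room for changes of more than 2-fold in either direction on the spots of clone A. Within replicates the size change of clone A was -1.04 in replicate 1 and 2.99 in replicate 2, and the value of 2.99 rests on the single spot at 16-25 mm. For 26-35 mm against 1-5 mm, 0 of 6 FLS spots and 0% of all spots were called, and 0 FLS spots and 644 of all spots had an unadjusted p under 0.05. The test of any difference among the 5 tuber classes called 0 of 6 and 0% of all spots, with 0 and 243 at an unadjusted p under 0.05.

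The replicate number marks the sets of plants and the dye, and tuber classes deviated together by replicate, with correlations of 0.85 to 0.93. With the replicate as a block, 19.6% of all spots were called for size and still 0 of 6 FLS spots. Clone A then changed by -0.62 ± 0.39 (adjusted p = 0.299) and 0.98 ± 0.95 (adjusted p = 0.508) by the limma fit. The blocked test of any difference called 7.35% of all spots and 0 of 6 FLS spots, and that of 26-35 mm against 1-5 mm 16.8% and 0 of 6. The spread between replicates of the tuber values was wide for clone A, with a pooled SD of 2.17 on spot 152117, more than on 98.8% of the 7823 spots with every tuber value. Clone B had 0.51 and 0.67, near the median of 0.58.

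In culture the mean of clone A lay between -1.11 and 0.51, and its replicates ran apart. The mean of its spots was -0.38, -0.09, 0.25, 0.23 and 0.37 in culture order from 2 to 30 days in replicate 1. In replicate 2 it was 0.51, -0.44, -0.62, -1.11 and -0.40 at the same times. Replicate 1 was lowest at 2 days, when replicate 2 was highest, and the replicates lay 1.33 apart at 20 days. The duplicate spots of the clone nevertheless differed by at most 0.22 on any in vitro array, so the divergence is shared by both spots. Its pooled SD between replicates was 0.58 and 0.69, above 98.9% and 99.4% of the 15565 spots with every in vitro value, for which the median was 0.15. No culture comparison called clone A. Microtubers of 20-30 days differed from those of 2-5 days by -0.11 ± 0.31 (limma adjusted p = 0.795) on spot 151273 and by -0.15 ± 0.36 (adjusted p = 0.754) on spot 152117. Over the single replicates the clone changed by 0.53 in replicate 1 and -0.79 in replicate 2.

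Clone B rose by 5 days of culture and was below its 2-5 day level at 20-30 days, in both replicates. Its means were -0.15, 0.38, 0.18, -0.11 and -0.29 in the same order of times in replicate 1. In replicate 2 they were -0.11, 0.67, 0.11, -0.31 and -0.49. Both replicates were highest at 5 days and lowest at 30 days. Spot 137682 was 0.66 ± 0.16 higher at 5 than at 2 days (adjusted p = 0.0424) and spot 138526 0.64 ± 0.16 higher (adjusted p = 0.0481), by limma with Benjamini-Hochberg adjustment over 19600 spots. These were 2 of 8 FLS spots called, both higher, where 5.49% of all spots were called, and they are 1 clone. At 20-30 against 2-5 days spot 137682 was lower by 0.37 ± 0.11 (limma adjusted p = 0.0207) and spot 138526 by 0.63 ± 0.11 (adjusted p = 0.00126). The 5-day arrays are part of this comparison and of that of 5 against 2 days, so the 2 results are not independent. At 20-30 against 2-5 days 2 of 8 FLS spots, both of 1 clone, were called where 48.5% of all spots were. The cyclin spots for dividing tissue were lower at the same contrast, 4 of 4 by the limma fit with a median change of -0.89, and their part in the change of clone B was not tested. Tested for a difference of any kind over the culture times, the same 2 spots passed (limma adjusted p = 0.0168 and 0.00393), as did 36.8% of all spots.

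Against 2 days the limma fit called 0 of 8 FLS spots at 10 days, 0 at 20 days and 0 at 30 days, where 25.8%, 41.9% and 40.6% of all spots were called. At an unadjusted p under 0.05 there were 0, 0 and 1 FLS spots. At 20 days spots 137682 and 138526 of clone B differed from 2 days by 0.05 ± 0.16 (limma adjusted p = 0.835) and -0.22 ± 0.16 (adjusted p = 0.302). At 30 days they differed from 2 days by -0.12 ± 0.16 (adjusted p = 0.565) and -0.40 ± 0.16 (adjusted p = 0.068). The call at 5 days is close to the threshold. Spot 138526 had an adjusted p of 0.053 with the replicate block, and as the mean over all 8 FLS spots the change was -0.07 ± 0.18 (adjusted p = 0.840). Without any 1 of the 2 arrays of 2 days, 5 days or 10 days, 0 FLS spots were called at 5 against 2 days, and the changes of clone B lay between 0.51 and 0.82. Without an array of 20 days, or replicate 2 of 30 days, 1 spot was called. The difference of 20-30 from 2-5 days held on spot 138526 without any single array (highest adjusted p = 0.00683). On spot 137682 it was lost without replicate 2 of 2 days (adjusted p = 0.0579), of 5 days (adjusted p = 0.0821) and of 20 days (adjusted p = 0.0695), and the test of any difference called 1 spot without replicate 2 of 5 days.

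**Figure D3:**
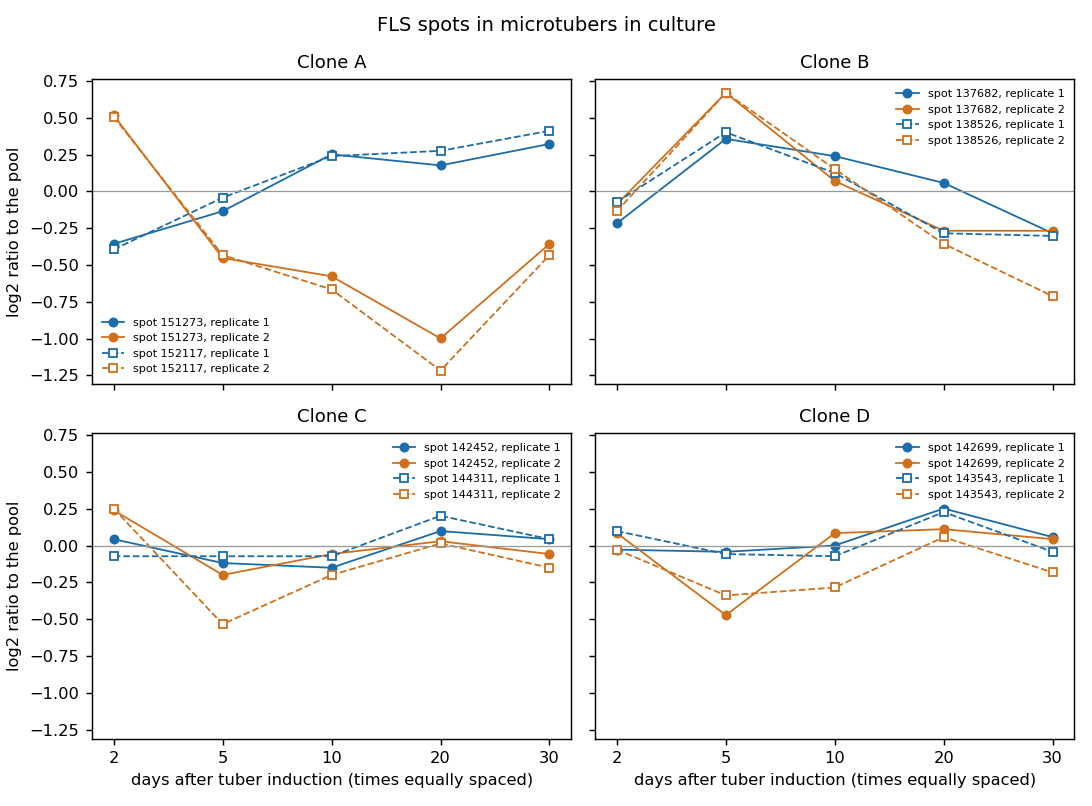
Log2 ratio to the pool (vertical) of both spots of each FLS clone in microtubers at 5 times (horizontal, equally spaced), one line per spot and replicate. Clone B peaks at 5 days in both replicates, at 0.36 to 0.67 on its spots, while the replicates of clone A run apart and reach 0.41 and -1.22.

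Clones C and D stayed near the pool throughout culture. Clone C had means between -0.11 and 0.15 in replicate 1 and between -0.37 and 0.24 in replicate 2. Clone D had means between -0.05 and 0.24 in replicate 1 and between -0.41 and 0.08 in replicate 2. None of their 4 spots was called in any culture comparison. At 5 against 2 days they differed by -0.39 to -0.23, with adjusted p from 0.193 to 0.394 by limma. These changes, and those of clone A as a mean of replicates, were below 0 where those of clone B were above 0. By replicate, however, clone A changed by 0.29 in replicate 1 and by -0.95 in replicate 2. The difference between clones was not tested. At 20-30 against 2-5 days the spots of clones C and D differed by 0.04 to 0.23 (adjusted p from 0.109 to 0.755). The median over the 8 FLS spots was -0.29 at 5 against 2 days and -0.04 at late against early times, where the median of all spots was 0.02 in both.

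The changes of the clones listed under FLS lay furthest apart for tubers minus stolon, and the difference between clones was not tested. For tubers minus stolon, the contrast on which FLS was selected, the clone means ranged over 5.31 log2 units across 3 clones. At 5 against 2 days the 4 FLS clones ranged over 1.00, and at 20-30 against 2-5 days over 0.66. Among the 18 genes with exactly 4 tested clones, FLS included, the median range was 0.31 at 5 against 2 days, where FLS ranked 4 from the widest, and 0.68 at the late against early times, where FLS ranked 10. These ranks are a description with no test. The spots of a clone differed within an array by a median of 0.08 to 0.11 in vitro, and in vivo by 0.41 for clone A over 11 arrays, 0.14 for clone B over 12 and 0.23 for clone C over 9. Whether all 4 clones derive from 1 gene was not tested.

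Few other genes of the pathway could be followed. Of 51 names on a phenylpropanoid and flavonoid list, F3H and CCoAOMT, the caffeoyl-CoA O-methyltransferase of lignin precursors, matched besides FLS. F3H, the enzyme that makes the FLS substrates, had a value on 5 of 10 in vitro arrays and on 0 of 12 in vivo arrays on each of its 2 spots, and was not tested. CCoAOMT fell in culture on both spots, by 0.55 ± 0.09 (adjusted p = 6.50e-04) and 0.49 ± 0.10 (adjusted p = 0.00234) at 20-30 against 2-5 days by limma. In that contrast 48.5% of all 19600 spots were called. CCoAOMT did not pass at 5 against 2 days, where it differed by -0.26 ± 0.12 (adjusted p = 0.254) and -0.14 ± 0.14 (adjusted p = 0.587). On the plant its tested spot differed by 0.24 ± 0.60 between tubers and stolons (adjusted p = 0.811) and by -0.19 ± 0.59 with tuber size (adjusted p = 1.000).

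Of 22 names of 2-oxoglutarate dependent dioxygenases, the enzyme class of FLS, F3H and GA2OX1 matched besides it. GA2OX1, which inactivates gibberellins, was higher at 5 than at 2 days on both spots, by 0.76 ± 0.16 (adjusted p = 0.0258) and 0.80 ± 0.15 (adjusted p = 0.0187) by limma, as clone B of FLS was. Its spot 132530 had log2 ratios of -0.56, 0.20, 0.45, -0.07 and -0.60 over the 5 times in replicate 1 and of -0.36, 0.41, 0.50, 0.20 and -0.32 in replicate 2. GA2OX1 thus was highest at 10 days in both replicates, later than clone B. It did not pass at 20-30 against 2-5 days (-0.12 ± 0.11 and -0.20 ± 0.11, adjusted p = 0.386 and 0.143). On the plant the direction was opposite to clone A, and its spots were 3.26 ± 0.49 and a closely similar amount higher in tubers than in stolons (limma adjusted p = 0.00359 and 0.00377). Of all spots, 5.49% were called at 5 against 2 days and 22.3% for tubers against stolons.

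The named genes whose profile was most like that of the FLS mean were found by Pearson correlation over arrays, as a description. Over the 12 in vivo arrays and 366 genes these were LOC102577689 (r = 0.87), LOC102581985 (0.86), ureG (0.83), CI-20kD (0.81) and isi1 (0.81). By Spearman rank correlation the same genes had 0.84, 0.73, 0.62, 0.53 and 0.57. Over the 10 in vitro arrays and 407 genes the closest were LOC102584024 (0.86), LOC102589825 (0.82), LOC102585328 (0.76), eIF5A1 (0.72) and IPKA (0.72). Their Spearman correlations were 0.75, 0.78, 0.73, 0.67 and 0.64. The arrays of a system share a reference pool, and the in vivo arrays of a replicate share their set of plants and dye order. Because the clones differ, the mean profile is in vivo mostly that of clone A. In clone A the stolon arrays lie far above the tuber arrays, the contrast on which FLS was selected. The in vivo correlations rest in part on that contrast and are no evidence for it. Single clones were added after the values were seen. Closest to clone A in vivo was cab1, a chlorophyll a/b binding protein name (r = 0.85 over 10 arrays), by a small margin. It was followed by LOC102577689 (0.84 over 12), GRX2 (0.84 over 11), isi1 (0.83 over 12) and ureG (0.83 over 12). In vitro LOC102584024 was closest to clone A (0.94). For clone B the closest in vitro were MIP2 (0.93), LOC102577476 (0.87), LOC102596963 (0.86) and the catalase CAT1 (0.86), all over 10 arrays, and in vivo TSF (0.93 over 12 arrays).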

How the data were processed

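The deposited values are log2 ratios of sample and pooled RNA on each array. The submitters' processing notes name limma. For background correction, normalization, spot filtering and the order of sample and reference, the steps are not given here by any source. Values were used as deposited, with in vivo replicate 2 multiplied by -1. The lowest ratio is 0.01 (log2 of -6.64), which no deposited FLS value reached. Spots were named through the platform annotation, 1630 with 1 gene.

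Spots measured on 80% or more of a fit's arrays and in every group were fitted by least squares, exact for missing values, with moderated variances from limma 3.58.1 in R 4.3.3 (fits across all spots, checked against limma and tested on simulated data). A spot was called at an adjusted p under 0.05 (Benjamini-Hochberg over all spots). The 10 in vitro and the 10 tuber arrays were fitted apart. Stolons were left out of the size tests. Named genes were all FLS spots, the matched list members and the 5 genes most correlated with the FLS mean per system. Genes close to single clones were named after their values were seen.

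In vivo replicate numbers mark sets of plants and dyes, and pair the tuber arrays (r of 0.85 to 0.93 in 10 of 10 pairs of classes). Stolons deviated against tubers (-0.47 to -0.37). In vitro, 4 of 10 pairs of times exceeded 0.1. Other settings tried were centring, quantile normalization, filters, array weights, gene means, the other in vivo direction and leaving out arrays. The members and lists were chosen with earlier results of these data known.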

Additional observations from a re-analysis of the deposited data

How the results depend on the processing

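The call of FLS spots at 5 against 2 days was 2 spots, and 1 spot with median-centred arrays, with no filter on missing values and with the replicate block. With the mean over the spots of a gene, a setting that averages all FLS clones, the FLS call was 0 for this comparison. It was also 0 for 20-30 against 2-5 days and for any difference among times. Leaving out single arrays gave 0 to 2 spots at 5 against 2 days, 1 to 3 at 20-30 against 2-5 days (3 without replicate 1 of 5 days), 1 to 2 for any difference and 0 to 1 at 30 against 2 days. In those fits the late against early changes of clone A changed sign, with -0.40 to 0.19 on spot 151273 and -0.52 to 0.22 on spot 152117, as did the changes at 5 against 2 days, with -0.81 to 0.063 and -0.74 to 0.16. Without replicate 1 of 30 days, 1 spot passed at 30 against 2 days. The in vitro replicate numbers share only a number, and the block changed no call besides that of spot 138526. All 3 tuber size tests kept 0 FLS spots under every setting run, and fits with all 12 in vivo arrays gave no value for the one of any difference among classes. The median tuber minus stolon difference of -0.77 became 0.77, a change of sign only, with replicate 1 turned instead of replicate 2. It was -2.42 as a mean over spots and -0.94 to -0.74 without single arrays. In replicate 1 alone it was -0.78 and in replicate 2 alone -1.37. A single replicate keeps only spots with a value in all 5 tuber classes, in replicate 2 spots 137682, 138526 and 152117. These 2 medians are therefore not over the same spots as the -0.77. Beyond that, the cause of these shifts was not tested.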
